A study of Homo sapiens with 6 samples.

Results

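Polycomb repressive complex 1 (PRC1) was examined through 9 of its subunit genes in MOLT-4, a widely used human leukemia line of the T-cell acute lymphoblastic type (T-ALL): RING1, RNF2, BMI1, PCGF2, CBX2, CBX7, CBX8, PHC1 and PHC2. A gene was taken when the gene symbol of its row equalled one of these names, which gave 9 of the 60640 gene identifiers in each expression table, 1 row per name. The rule reads only the symbol, but the 9 names were chosen with earlier results of these data known. All 9 passed the filter used for testing, a mean of at least 1 FPKM (fragment number scaled by transcript length in kilobases and by mapped library depth) over the 6 libraries, together with 12652 genes in all.

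Polyadenylated RNA was sequenced from 3 wild type libraries, the control of the CRISPR knockout, and from 3 libraries labelled IK-KO, whose cells had been targeted by CRISPR-Cas at IKZF1, which encodes the zinc finger DNA-binding protein IKAROS. Both groups were grown in the same RPMI1640 medium with serum and received no drug. The edited cells and their control were purchased, the labels name no clone, nor do they state if each replicate had its own culture. The study shows a protein blot of different knockout clones, and the labels do not state which gave these libraries. A difference between the lines therefore cannot be told apart from an effect of the edit, and p-values cover only the spread among these libraries, which may be technical. The comparison asks whether transcripts of the complex that writes and reads a repressive histone mark differ between the edited T-ALL cells and their control.

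PRC1 adds ubiquitin to a lysine of histone H2A (the mark H2AK119ub). Its catalytic core pairs a RING E3 ligase (RING1 or RNF2, also called RING1A and RING1B) with a PCGF protein. Canonical PRC1 carries BMI1 or PCGF2, a CBX protein whose chromodomain binds the H3K27me3 mark made by the EZH2 complex PRC2, and a PHC protein whose SAM domain polymerises and compacts chromatin. Variant PRC1 instead carries RYBP or YAF2 and can use any PCGF protein. BMI1 is known for silencing CDKN2A in lymphoid and leukemia cells and for sustaining stem cell self-renewal.

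The libraries held between 21254 and 21887 rows above 0. For a transcript of 1 kilobase, 1 FPKM rested on between 16.3 and 19.8 fragments, as inferred from the deposited confidence bounds, which limits precision for PCGF2 and CBX7. Of 11 T-lineage marker genes all were above the filter, and they summed to 1429 to 1502 FPKM in wild type and to 1552 to 1724 FPKM in the IK-KO-labelled libraries. Of these markers 9 were called (5 higher, 4 lower), which is 81.8% against 19.9% of all tested genes. CD4 passed the filter only through the wild type libraries, so its call is no support for this count. The 4 that fell were CD2 (61.5 ± 2.45 to 5.14 ± 0.217 FPKM; SD, n = 3), CD7 (15.8 ± 0.887 to 4.17 ± 0.960), CD5 (25.3 ± 1.11 to 11.7 ± 1.59) and CD4 (2.77 ± 0.178 to 0.384 ± 0.117). The 5 that rose were CD1A (51.0 ± 3.25 to 93.4 ± 2.98), CD3G (66.5 ± 6.24 to 104.9 ± 3.98), CD3D (489.5 ± 48.3 to 666.5 ± 90.5), ZAP70 (131.4 ± 5.59 to 162.0 ± 5.745) and PTCRA (1.44 ± 0.484 to 2.905 ± 0.535). Whether these marker changes had a part in the values below was not tested. B-cell, myeloid, erythroid and epithelial markers summed to at most 2.19, 0.606, 0.612 and 2.01 FPKM in any library, with EPCAM and HBB listed at 0 in all 6. IKZF1 itself was 134, 124 and 105 FPKM in wild type and 207, 260 and 207 FPKM in the IK-KO-labelled libraries, a log2 change of 0.89 ± 0.12 (SE; limma, Benjamini-Hochberg adjusted p = 0.00295). Its RNA thus went against a loss of transcript. The study states that it checked the knockout by PCR and by protein blot, and FPKM per gene does not show an edit within the coding sequence, so every direction below is between libraries by their labels.

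Of the 9 subunits, PCGF2, CBX2 and PHC2 were higher and CBX7 was lower in the IK-KO-labelled libraries, while RING1, RNF2, BMI1, CBX8 and PHC1 did not pass the test. A gene is called here at a limma adjusted p under 0.05. That is 4 of 9 called, against 19.9% of all tested genes. In the upward direction it is 3 of 9, against 10.1%, and in the downward direction 1 of 9, against 9.75%. The 3 values of one group lay wholly above or below those of the other for 6 of 9 subunits, against 39.0% of all tested genes. PCGF2 passed the filter only through the libraries labelled IK-KO, so its call and non-overlap are no support for these counts, which without it were 3 called and 5 not overlapping among 8. The median log2 change of the 9 was 0.20, against 0.02 over all tested genes, and their median absolute change was 0.28, against 0.18. Without PCGF2 these medians were 0.15 and 0.24. In these bulk libraries, more RNA per cell and more cells carrying it cannot be told apart.

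Log2 changes are differences of mean log2(FPKM + 1), with IK-KO minus wild type, and understate the change of genes at low FPKM. The promoters of the called subunits that had a reference sequence are shown first, because IKAROS is a DNA-binding protein with a known core motif, TGGGAA. They cover the 250 bases before the annotated start, read 5′ to 3′ on the gene's strand, from RefSeq on GRCh38.p14, and capitals mark TGGGAA or its reverse complement TTCCCA. The PCGF2 window lies at chr17:38746629-38746878 on the minus strand, in introns of 5 annotated transcripts that begin further upstream. The CBX7 window lies at chr22:39152681-39152930 and that of PHC2 at chr1:33431096-33431345, both on the minus strand and outside annotated transcripts of the gene itself. Overlap with transcripts of other genes was not checked.
PCGF2: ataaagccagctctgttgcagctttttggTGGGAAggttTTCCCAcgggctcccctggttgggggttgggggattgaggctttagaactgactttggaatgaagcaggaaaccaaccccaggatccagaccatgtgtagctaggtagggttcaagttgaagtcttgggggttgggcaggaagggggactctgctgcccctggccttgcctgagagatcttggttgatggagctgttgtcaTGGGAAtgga
CBX7: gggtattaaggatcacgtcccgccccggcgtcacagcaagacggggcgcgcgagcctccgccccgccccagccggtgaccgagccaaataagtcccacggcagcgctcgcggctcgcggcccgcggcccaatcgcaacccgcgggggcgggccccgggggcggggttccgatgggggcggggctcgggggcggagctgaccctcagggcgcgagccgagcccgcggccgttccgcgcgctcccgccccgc
PHC2: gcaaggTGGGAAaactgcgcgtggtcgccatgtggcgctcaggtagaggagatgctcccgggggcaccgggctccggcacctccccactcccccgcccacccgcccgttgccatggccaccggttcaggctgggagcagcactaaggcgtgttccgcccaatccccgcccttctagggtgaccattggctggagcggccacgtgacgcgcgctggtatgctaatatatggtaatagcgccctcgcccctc
The PCGF2 window held 3 matches, of which 2 read TGGGAA and 1 TTCCCA. The PHC2 window held 1 and the CBX7 window held 0. A second annotated PHC2 start, at chr1:33349900-33350149, had 0. Of 35116 promoter windows of this length, 20.85% held at least 1 match, 2.90% at least 2 and 0.305% at least 3. These shares were not matched for base composition, and G and C made up 54.0% of the PCGF2 window, 66.8% of that of PHC2 and 78.8% of that of CBX7. Among the uncalled subunits, one BMI1 window (chr10:22320849-22321098, plus strand) and one PHC1 window (chr12:8913593-8913842, plus strand) held 1 match, and the windows of RING1 and RNF2 held 0. Sequences were at hand for 7 of the 9 subunits, not for CBX2 and CBX8. No other motif was searched, and a match is a run of letters, not a measured binding site.

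The first pair are the E3 ligases. RING1 (ENSG00000204227.5, chr6:33208500-33212722, plus strand) was 30.2, 30.1 and 28.2 FPKM in wild type and 32.2, 35.4 and 34.1 FPKM in the IK-KO-labelled libraries. All 3 of the latter lay above all 3 wild type values, with means of 29.5 ± 1.11 and 33.9 ± 1.59 FPKM (SD, n = 3). The log2 change of RING1 was 0.20 (95% interval 0.05 to 0.34) and did not pass (limma adjusted p = 0.0701). The 50 tested genes nearest to RING1 on chromosome 6 had a median change of 0.21, and within 1000 kb 11 of 28 tested neighbours were called higher and 3 lower. Over all tested genes these shares were 10.1% and 9.75%. With the neighbours' median taken away, the change of RING1 was -0.015.

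RNF2 (ENSG00000121481.11, chr1:185045526-185102603, plus strand), the more active ligase in most cells, was 18.8, 18.7 and 18.2 FPKM in wild type and 17.5, 19.3 and 23.5 FPKM in the IK-KO-labelled libraries. The groups overlapped, and replicate 3 of the latter stood above the other five. The change of RNF2 was 0.10 (95% interval -0.15 to 0.35; limma adjusted p = 0.574), and without that replicate it was -0.015. RING1 made up 61.3% ± 0.474 (SD, n = 3) of the summed FPKM of both ligases in wild type and 62.9% ± 3.21 in the IK-KO-labelled libraries, with overlapping ranges. The sum of RING1 and RNF2 was 48.0 ± 1.45 FPKM and 53.9 ± 3.97 FPKM (SD, n = 3). The groups did not overlap, but the gap was narrow, from 48.95 FPKM in wild type to 49.67 FPKM in the IK-KO-labelled libraries. For 39.0% of all tested genes the groups do not overlap either, and neither ligase was called.

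**Figure D1:**
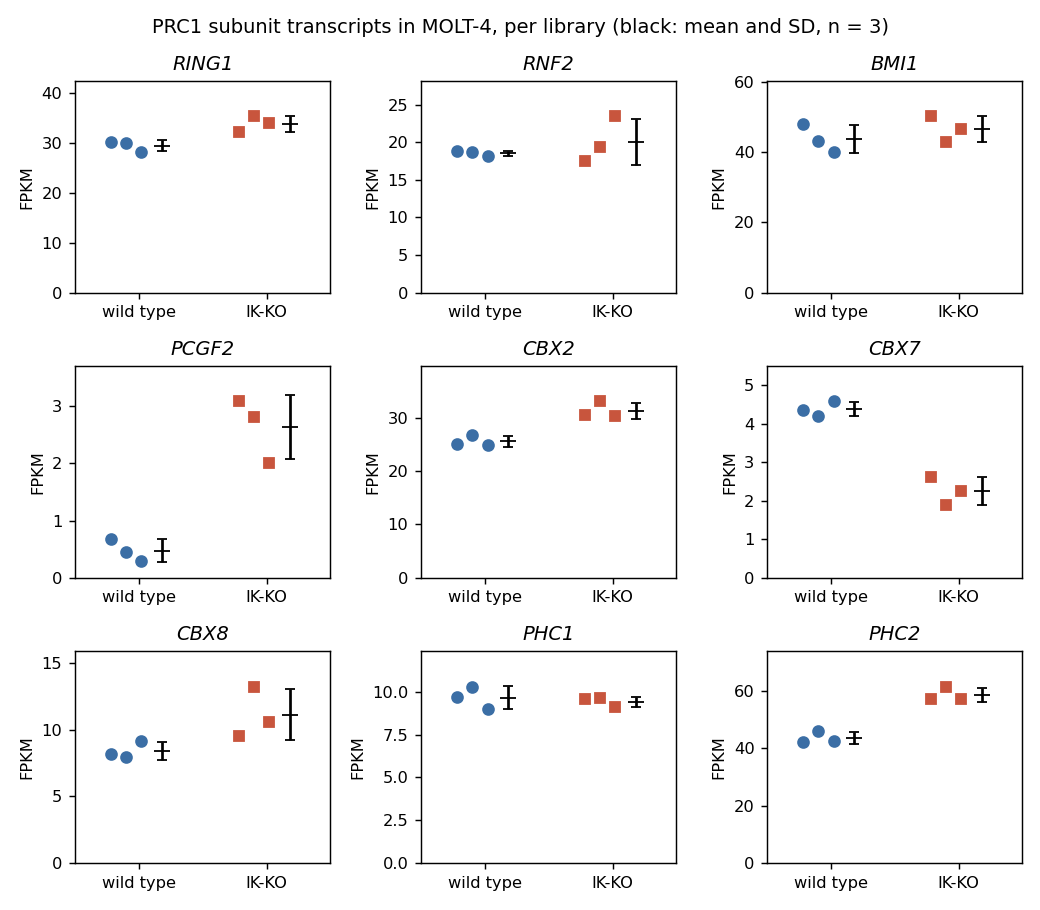
FPKM of each of the 9 PRC1 subunits (vertical axes, linear and from 0, each with its own scale) in the 3 wild type libraries (blue circles) and the 3 libraries labelled IK-KO (red squares), with black marks for mean and SD. PCGF2 sits at 0.293 to 0.682 FPKM in wild type and at 2.01 to 3.08 FPKM in the IK-KO-labelled libraries, CBX7 falls from 4.204 to 4.58 FPKM to 1.90 to 2.62 FPKM, and RNF2, BMI1 and PHC1 overlap.

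PCGF2 (also called MEL18) and BMI1 (also called PCGF4) are the alternative PCGF subunits of canonical PRC1. PCGF2 (ENSG00000277258.5, chr17:38733898-38749817, minus strand) was 0.682, 0.442 and 0.293 FPKM in wild type and 3.08, 2.81 and 2.01 FPKM in the IK-KO-labelled libraries. The groups lay far apart relative to their spread, with means of 0.472 ± 0.197 and 2.63 ± 0.558 FPKM (SD, n = 3) and a ratio of means of 5.57. The change of PCGF2 was 1.30 ± 0.19 on the log2(FPKM + 1) scale (SE; 95% interval 0.85 to 1.75; limma adjusted p = 0.00415), and 2.29 with a pseudocount of 0.1 in place of 1. Its wild type values were near the limit of the estimate: the deposited lower bounds were 0.0108, 0 and 0 FPKM, and the highest upper bound was 1.35 FPKM. The lower bounds in the IK-KO-labelled libraries were 2.12, 1.97 and 1.29 FPKM, so that of replicate 3 lay below the highest wild type upper bound. The 50 nearest tested genes had a median change of -0.17. CISD3, which overlaps PCGF2 on the opposite strand, had a log2 change of -0.06 that did not pass (limma adjusted p = 0.613), and whether the quantification used strand is not given in the sources used here.

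BMI1 (ENSG00000168283.14, chr10:22321099-22331484, plus strand) was 48.1, 43.3 and 40.2 FPKM in wild type and 50.2, 43.0 and 46.5 FPKM in the IK-KO-labelled libraries. The groups overlapped, and the change of BMI1 was 0.09 (95% interval -0.12 to 0.29; limma adjusted p = 0.536). The readthrough gene COMMD3-BMI1, which shares its exons, was listed at 0.000286 to 1.80 FPKM with a lower bound of 0 in all 6 libraries. COMMD3, the upstream neighbour, had a log2 change of 0.08 (limma adjusted p = 0.418). PCGF2 made up 1.05% ± 0.339 (SD, n = 3) of the summed FPKM of BMI1 and PCGF2 in wild type and 5.35% ± 1.06 in the IK-KO-labelled libraries, so BMI1 remained the main transcript of the pair in every library, at 93.9% or more.

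The other PCGF genes, which mark variant complexes, did not pass the test. The log2 change of PCGF1 was -0.06 (0.01 without wild type replicate 2), that of PCGF3 0.16, that of PCGF5 -0.25 and that of PCGF6 0.03 (-0.02 without wild type replicate 1 or without replicate 3 labelled IK-KO), with limma adjusted p from 0.142 to 0.871. PCGF5 passed without wild type replicate 3 (change -0.34, limma adjusted p = 0.0485). Over all 6 PCGF genes, BMI1 held 36.2% ± 1.17 of the summed FPKM in wild type and 37.0% ± 2.98 in the IK-KO-labelled libraries (SD, n = 3), and PCGF3 was next at 25.2% and 27.2%. PCGF2 held 0.384% ± 0.138 and 2.09% ± 0.413, the smallest share in both groups.

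The CBX proteins read H3K27me3 and compete for one place in canonical PRC1. CBX2 (ENSG00000173894.11, chr17:79778148-79787983, plus strand), which also compacts nucleosomes through its charged middle region, was 25.1, 26.8 and 24.8 FPKM in wild type and 30.5, 33.0 and 30.2 FPKM in the IK-KO-labelled libraries. Every value of the latter was above every wild type value, with means of 25.5 ± 1.076 and 31.3 ± 1.54 FPKM (SD, n = 3). The change of CBX2 was 0.28 ± 0.06 (SE; 95% interval 0.13 to 0.43; limma adjusted p = 0.0226). The call rested on all but 2 of the libraries: limma adjusted p was 0.0737 without wild type replicate 1, 0.0569 without wild type replicate 3, 0.0555 without replicate 1 labelled IK-KO and 0.0745 without replicate 2 labelled IK-KO, and it ran from 0.0173 to 0.0745 over all 16 alternatives.

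CBX8 (ENSG00000141570.11, chr17:79792132-79801683, minus strand), the neighbour of CBX2, was 8.16, 7.93 and 9.19 FPKM in wild type and 9.51, 13.2 and 10.6 FPKM in the IK-KO-labelled libraries. The groups did not overlap, but the change of 0.35 (95% interval 0.05 to 0.65) did not pass (limma adjusted p = 0.0974). The midpoint of CBX8 was 13.8 kb from that of CBX2, and the 50 tested genes nearest to both had a median change of -0.003. Within 1000 kb of CBX2, 4 of 15 tested genes were called higher and 0 lower, with a median change of 0.08. Around CBX8 it was 5 of 15 higher, CBX2 among them, and 0 lower, with the same median. These windows held the same tested genes apart from the centre gene, so their counts are not separate results. Of all tested genes, 10.1% were called higher and 9.75% lower.

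CBX7 (ENSG00000100307.13, chr22:39120167-39152680, minus strand), a CBX protein prominent in pluripotent cells, was 4.36, 4.204 and 4.58 FPKM in wild type and 2.62, 1.90 and 2.26 FPKM in the IK-KO-labelled libraries. All 3 of the latter were below all wild type values, with means of 4.38 ± 0.189 and 2.26 ± 0.358 FPKM (SD, n = 3) and a ratio of 0.516. CBX7 fell by 0.73 ± 0.13 on the log2(FPKM + 1) scale (SE; 95% interval -1.03 to -0.43; limma adjusted p = 0.0078). The deposited bounds on each CBX7 value spanned 32.8% to 46.9% of it to either side, and the upper bounds in the IK-KO-labelled libraries (3.84, 2.54 and 3.06 FPKM) reached past the lowest wild type lower bound, 2.82 FPKM. CBX6, which lies 270 kb from CBX7 between midpoints, was 14.5, 15.7 and 15.4 FPKM in wild type and 10.4, 11.98 and 9.61 FPKM in the IK-KO-labelled libraries, a change of -0.48 ± 0.09 (SE; limma adjusted p = 0.0127). Also called lower near CBX7 were the cytidine deaminase genes APOBEC3C (-1.43), APOBEC3D (-0.88) and APOBEC3G (-1.28), named after their values were seen. These 3 and CBX6 were all 4 of the called falls among the 30 tested genes within 1000 kb of CBX7, beside 2 called rises, CSNK1E (0.25) and TPTEP2 (0.99), which were likewise named after their values were seen. Over all tested genes, 9.75% were called lower and 10.1% higher. The median of the 50 nearest genes was 0.01.

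**Figure D2:**
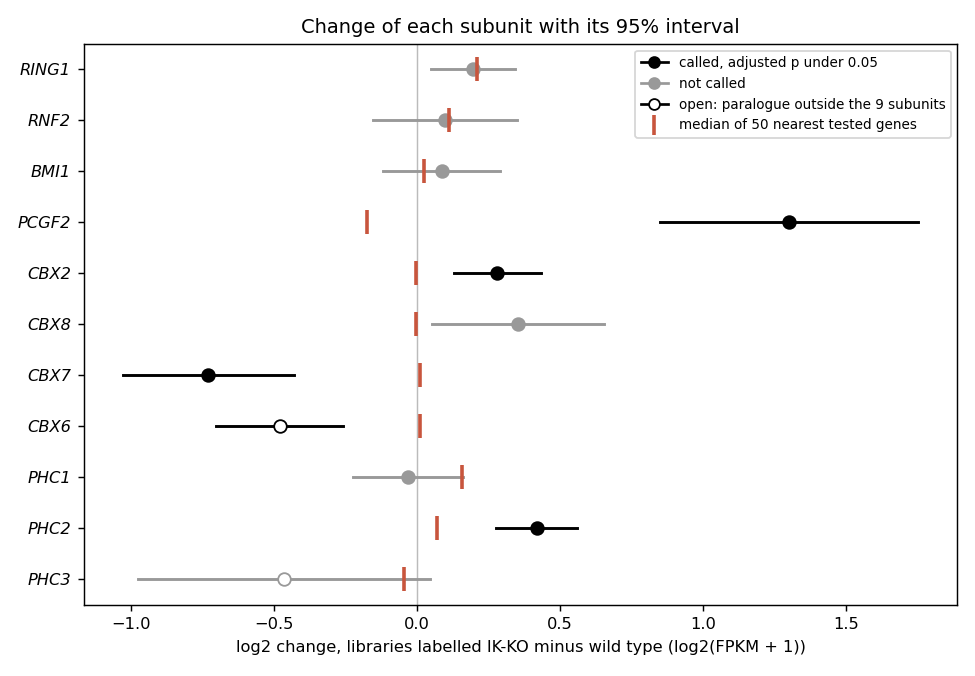
Log2 change (horizontal axis, libraries labelled IK-KO minus wild type, log2(FPKM + 1)) with its 95% interval for the 9 subunits (filled) and the paralogues CBX6 and PHC3 (open), black where called, and red ticks for the median change of the 50 nearest tested genes. PCGF2 stands at 1.30 against a local median of -0.17, CBX7 at -0.73 against 0.01, and RING1 at 0.20 coincides with its local median of 0.21.

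Over CBX2, CBX6, CBX7 and CBX8, summed FPKM was 53.6 ± 1.34 in wild type and 55.3 ± 4.22 in the IK-KO-labelled libraries (SD, n = 3), with overlapping groups. Of that sum CBX7 held 8.18% ± 0.429 in wild type and 4.13% ± 0.898 in the other group, and CBX6 held 28.4% ± 0.509 and 19.2% ± 0.886 (SD, n = 3). CBX2 held 47.7% ± 1.58 and 56.6% ± 1.49, and CBX8 held 15.7% ± 1.26 and 20.0% ± 2.04 (SD, n = 3). For all 4 genes the shares of the groups did not overlap. Shares are descriptions, since they sum to a fixed total and were given no test.

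PHC proteins link PRC1 complexes through their SAM domains. PHC2 (ENSG00000134686.18, chr1:33323623-33431052, minus strand) was 42.2, 46.2 and 42.5 FPKM in wild type and 57.3, 61.5 and 57.1 FPKM in the IK-KO-labelled libraries. The groups were well separated, with means of 43.6 ± 2.202 and 58.6 ± 2.52 FPKM (SD, n = 3) and a ratio of 1.34. The change of PHC2 was 0.42 ± 0.06 (SE; 95% interval 0.28 to 0.56; limma adjusted p = 0.0039), and the limma adjusted p stayed between 0.00232 and 0.0182 over the 16 alternatives. The 50 nearest tested genes had a median change of 0.07, and the 11 within 1000 kb a median of 0.19, with 3 called, each higher. Of all tested genes, 10.1% were called higher. With the 50-gene median removed the change of PHC2 was 0.35.

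PHC1 (ENSG00000111752.11, chr12:8913896-8941467, plus strand) was 9.68, 10.3 and 9.01 FPKM in wild type and 9.57, 9.62 and 9.09 FPKM in the IK-KO-labelled libraries. The groups overlapped, and the change of PHC1 was -0.03 (95% interval -0.22 to 0.16; limma adjusted p = 0.831), with a value of 0.01 without wild type replicate 2. Its processed copy PHC1P1 was listed at 1.91 to 2.49 FPKM with a log2 change of 0.12 (limma adjusted p = 0.605), and fragments of the 2 genes may have been divided between them by the estimation. PHC3 was 6.55, 12.04 and 7.09 FPKM in wild type and 5.84, 4.87 and 6.55 FPKM in the IK-KO-labelled libraries. Wild type replicate 2 stood apart, and the change of -0.46 (95% interval -0.97 to 0.05) did not pass (limma adjusted p = 0.186). Without that library it was -0.22. PHC2 made up 70.7% ± 2.90 of the summed PHC transcripts in wild type and 79.4% ± 1.34 in the IK-KO-labelled libraries. PHC1 made up 15.7% ± 0.805 and 12.8% ± 0.345, and PHC3 13.6% ± 3.45 and 7.82% ± 1.32 (SD, n = 3), and none of these shares overlapped between the groups. The shares sum to a fixed total, so those of PHC1 and PHC3 are no separate results. In FPKM both genes overlapped between the groups.

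**Figure D3:**
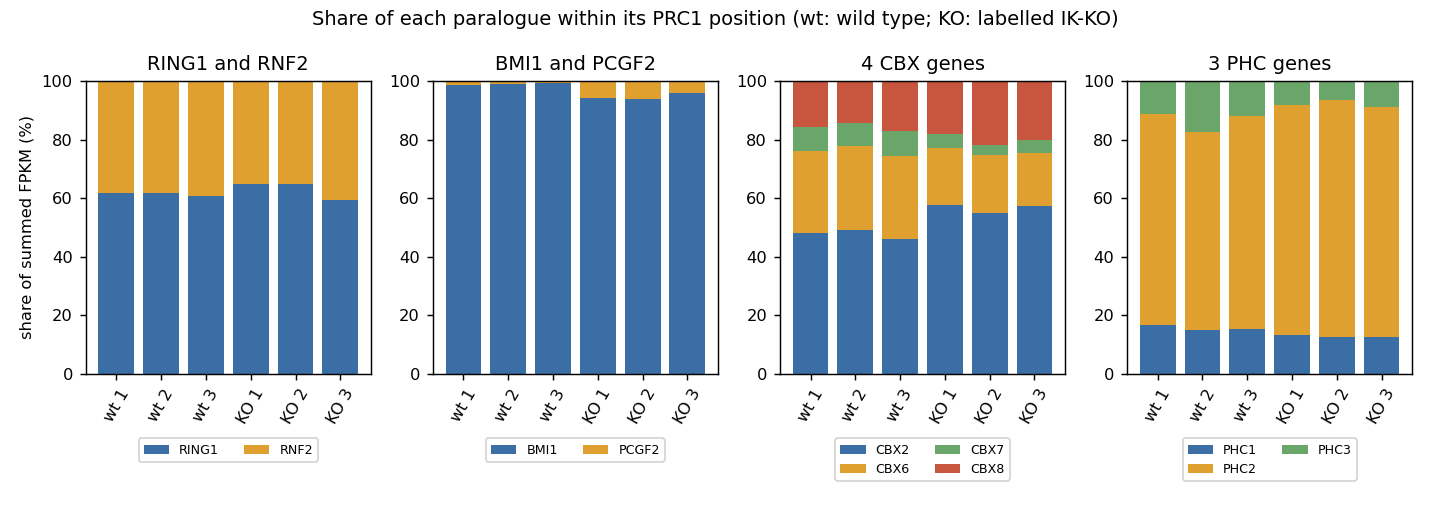
Share of summed FPKM (vertical axis, percent) held by each paralogue in the 3 wild type libraries (wt 1 to 3) and the 3 libraries labelled IK-KO (KO 1 to 3), for the E3 ligases, the canonical PCGF pair, 4 CBX genes and the PHC genes. The ligase shares overlap between groups, PCGF2 goes from about 1.05% to 5.35% of its pair, CBX6 and CBX7 take smaller and CBX2 and CBX8 larger shares, and PHC2 goes from 70.7% to 79.4%.

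FPKM is scaled by length, so the levels of the 9 genes can be ranked. In wild type the order of mean FPKM was BMI1, PHC2, RING1, CBX2, RNF2, PHC1, CBX8, CBX7 and PCGF2. The library ranges of BMI1 and PHC2 overlapped, as did those of PHC1 and CBX8, so neither pair could be ordered. In the libraries labelled IK-KO, PHC2 stood above BMI1 without overlap (57.1 to 61.5 against 43.0 to 50.2 FPKM). There RING1 and CBX2, CBX8 and PHC1, and PCGF2 and CBX7 overlapped with each other. PCGF2, the lowest subunit in every wild type library, thus overlapped the range of CBX7 there. Summed over the 9 genes, FPKM was 177.0 to 187.9 in wild type and 212.5 to 219.8 in the IK-KO-labelled libraries. PHC2 alone went from a mean of 43.6 to 58.6 FPKM, and 5 of the 9 genes were not called. The 6 other canonical PRC1 genes listed, CBX6 and PHC3 among them, went the other way. They summed to 48.81 to 59.38 FPKM in wild type and to 36.35 to 39.96 FPKM in the IK-KO-labelled libraries. These sums were not tested.

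**Figure D4:**
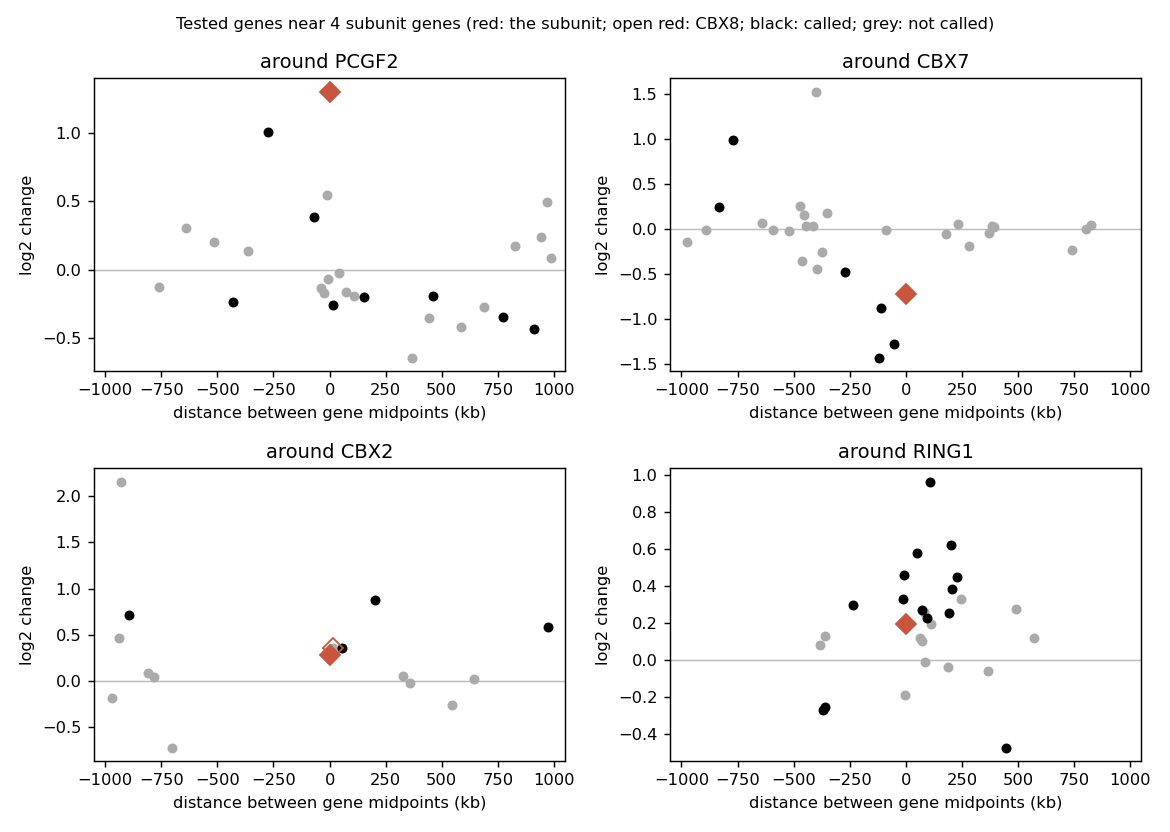
Log2 change (vertical axis) of every tested gene within 1000 kb of PCGF2, CBX7, CBX2 and RING1 against the distance between gene midpoints (horizontal axis, kb), black where called and grey where not, with the subunit as a red diamond and CBX8 as an open red diamond. PCGF2 lies above all 27 tested neighbours, CBX7 has 4 called falls and 2 called rises around it, and RING1 has 11 called rises and 3 called falls around it. Of all tested genes, 10.1% were called higher and 9.75% lower.

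The genes whose pattern over the 6 libraries was nearest to that of PCGF2, by the mean absolute difference of centred log2(FPKM + 1) values, were CADM4 (0.08), a cell adhesion molecule, ST8SIA2 (0.10), a polysialyltransferase, and PCK2 (0.10), the mitochondrial phosphoenolpyruvate carboxykinase. They lie on chromosomes 19, 15 and 14. Since they were picked by likeness to PCGF2, their rise in the IK-KO-labelled libraries is no separate result. CADM4 was 0.799 to 1.09 FPKM in wild type and 2.85 to 3.61 FPKM in the IK-KO-labelled libraries. Like PCGF2, CADM4 and ST8SIA2 passed the filter only through the IK-KO-labelled libraries. Near PCGF2 itself, EPOP, which encodes a protein that binds PRC2 and elongin, changed by 0.39 and was called higher, at 68.5 kb between midpoints, and it was named after its value was seen. Within 1000 kb of PCGF2, 2 of 27 tested genes were called higher and 6 lower, against 10.1% and 9.75% of all tested genes.

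Of the other canonical PRC1 subunits, 4 of 6 were tested and 2 were called, both lower (CBX6 and SCMH1; 50%, against 19.9% of all tested genes), with a median change of -0.47 against 0.02 over all tested genes. SCMH1, a SAM and MBT domain protein that associates with canonical PRC1, was 21.9, 18.3 and 15.0 FPKM in wild type and 12.8, 10.7 and 12.4 FPKM in the IK-KO-labelled libraries, a change of -0.57 ± 0.14 (SE; limma adjusted p = 0.0292). That call was lost without any one of 5 libraries, all except wild type replicate 3, with limma adjusted p from 0.0566 to 0.0893, and with no filter on low values (0.103). SCML1 and SCML4 were listed at 0 in all 6 libraries.

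Of 25 variant PRC1 genes all were tested, and 6 were called higher and 1 lower, with a median change of 0.07. That is 28% called, against 19.9% of all tested genes. AUTS2, which joins PCGF3 and PCGF5 complexes and is known to turn them toward activation in neurons, was 7.51, 7.78 and 6.28 FPKM in wild type and 20.5, 16.1 and 17.2 FPKM in the IK-KO-labelled libraries. The change of AUTS2 was 1.21 ± 0.12 (SE; limma adjusted p = 0.000736), and the groups were far apart. RYBP, which takes the place of CBX in variant PRC1, went from 6.41 ± 0.627 to 9.57 ± 0.392 FPKM (SD, n = 3), a change of 0.52 (limma adjusted p = 0.00982). SKP1, a partner in the KDM2B complex and of SCF ligases, changed by 0.48 (limma adjusted p = 0.00604). CSNK2B, the regulatory subunit of casein kinase 2, changed by 0.47 (limma adjusted p = 0.00307), with a median of 0.25 around it on chromosome 6, and with that taken away it did not pass (0.22, limma adjusted p = 0.0585). The remaining calls were E2F6 (0.43) and USP7 (0.23), both higher, and WDR5, which was lower at -0.35 (limma adjusted p = 0.00664) and sat among genes with a median change of -0.33, named after their values were seen. With that median removed the change of WDR5 was -0.02.

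Enzymes that remove H2AK119ub, and the PRC2 side of the pathway, were counted the same way. Of 14 H2AK119 deubiquitinase genes and partners 13 were tested and 1 was called (7.69%, against 19.9% of all tested genes), USP21, which was higher by 0.43 ± 0.08 (SE; limma adjusted p = 0.00842). Without its local median of 0.18 the change of USP21 was 0.25 and did not pass (limma adjusted p = 0.069). Of 8 PRC2 core genes and H2AK119ub readers all were tested and 2 were called, both higher (25%, against 19.9%). EZH2, the H3K27 methyltransferase, was 88.8, 88.6 and 85.2 FPKM in wild type and 107.5, 106.1 and 110.0 FPKM in the IK-KO-labelled libraries, a change of 0.30 ± 0.04 (SE; limma adjusted p = 0.00436). With its local median of 0.11 removed the change of EZH2 was 0.185 and still passed (limma adjusted p = 0.0311). RBBP4, a histone chaperone that PRC2 shares with other complexes, changed by 0.27 ± 0.05 (SE; limma adjusted p = 0.0101). EZH1 (-0.35) and SUZ12 (-0.29) were lower without overlap of the groups but did not pass (limma adjusted p = 0.0634 and 0.061). Both were named after their values were seen.

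Of 22 genes known as Polycomb targets in other cells, 4 passed the filter, and 5 were listed at 0 in all libraries. Among the 4 tested, 2 were called (50%, against 19.9% of all tested genes), and the median change was -0.44. HOXD13, a homeobox gene of the posterior body axis, was 4.69, 6.07 and 5.59 FPKM in wild type and 1.81, 1.30 and 2.02 FPKM in the IK-KO-labelled libraries. It fell by 1.25 ± 0.15 on the log2(FPKM + 1) scale (SE; limma adjusted p = 0.00193). WT1, the Wilms tumour zinc finger gene, was 12.2, 10.9 and 10.4 FPKM in wild type and 27.7, 25.9 and 24.1 FPKM in the IK-KO-labelled libraries, a change of 1.145 ± 0.09 (SE; limma adjusted p = 0.000239). The called targets thus went in opposite directions. The other tested targets, PAX6 (-0.46) and CDKN2B-AS1 (-0.42), did not pass (limma adjusted p = 0.0647 and 0.182) and were named after their values were seen. CDKN2A was at most 0.224 FPKM and CDKN2B was 0.154 to 0.352 FPKM over the 6 libraries, under the filter in both groups. FPKM does not show whether these genes are intact in this line, and the cause of their low values was not tested.

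**Figure D5:**
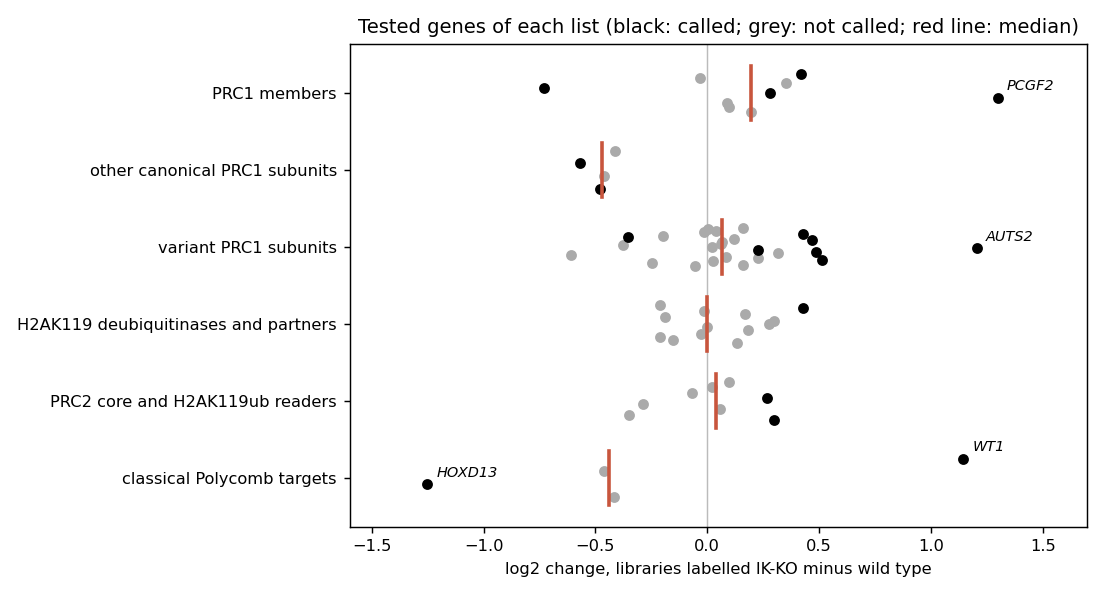
Log2 change (horizontal axis, libraries labelled IK-KO minus wild type) of each tested gene in 6 gene lists (rows), black where called and grey where not, with a red line at each list's median. The 9 subunits spread from -0.73 (CBX7) to 1.30 (PCGF2) around a median of 0.20, and the called targets HOXD13 and WT1 lie at -1.25 and 1.145.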

How the data were processed

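Polyadenylated RNA of 3 wild type and 3 IK-KO libraries of MOLT-4 was prepared with a NEBNext Ultra II kit. The authors deposited 1 gene table per library with FPKM values, scaled for transcript length and library depth, and confidence bounds. The submitters' processing notes name STAR 2.6.1c, Cufflinks 2.2.1, HOMER 4.10 and hg38 without roles or order. The RNA-seq methods of the study describe mouse reads and read counts and do not match these tables, and the strand setting is not given in the sources used here. No counts were given, so no count model was used.

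Rows of 1 gene identifier were summed (110 identifiers lay on more than 1 row), and 29 identifiers not estimated in at least 1 library were left out. Changes of log2(FPKM + 1) were fitted with limma 3.58.1 (R 4.3.3; lmFit and eBayes with a trend). Tests were two-sided and covered genes whose mean FPKM reached 1. P-values were adjusted by Benjamini-Hochberg, and genes called at an adjusted p under 0.05. The script was tested on simulated data. Groups and replicate numbers came from the labels, and the replicates may be technical. All 49727 identifiers that match a GENCODE 44 version lay at its position on GRCh38. Promoters were RefSeq windows of 250 bases.

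Results for 1 gene are not reported here. The subunits and gene lists were chosen with earlier results of these data known. Named were the 9 subunits, their paralogues, overlapping genes and copies, IKZF1 and EZH2, up to 4 called genes of each list by absolute change, and the 3 genes nearest in pattern to the subunit with the largest change. Alternatives were other pseudocounts, filters, scalings and trend settings, a replicate block, removal of the local median change, and leaving out each library. Same-numbered libraries deviated together by r = 0.067, 0.025 and 0.005, so the numbers were not taken to pair them.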

Additional observations from a re-analysis of the deposited data

How the results depend on the processing

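PCGF2, CBX7 and PHC2 kept their direction and their call under every alternative that could be fitted, 16 for PHC2 and 15 for the others, since PCGF2 and CBX7 fall under a filter of 5 FPKM. PCGF2 ranged from 1.21 to 2.29 and CBX7 from -0.94 to -0.65. That filter left 2 of the subunits called. The call of CBX2 was lost without wild type replicate 1 or 3 or without replicate 1 or 2 labelled IK-KO, and over the single-library omissions its change lay between 0.242 and 0.314. PHC1 changed sign without wild type replicate 2 (0.011; omissions gave -0.077 to 0.011) and RNF2 without replicate 3 labelled IK-KO (-0.015; omissions gave -0.015 to 0.188), and the local median's removal turned RING1 to -0.015 and RNF2 to -0.013, all without a call. The cause was not tested.

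For the partner genes and lists the same alternatives were added after the data were seen. Of the other canonical subunits, 1 in place of 2 was called with no filter on low values, and 1 to 3 when a library was left out. Of the variant PRC1 genes, 5 to 9 in place of 7 were called over the 16 alternatives. Deubiquitinases called went from 1 to 3 with median-of-ratios scaling and to 0 with the local median removed, PRC2 genes from 2 to 4 with rescaling to TPM or median-of-ratios scaling, and targets from 2 to 1 under the filter of 5 FPKM. CISD3 turned to 0.111 with the local median removed, PCGF1 to 0.013 without wild type replicate 2 (omissions from -0.148), and PCGF6 to -0.019 without wild type replicate 1 or replicate 3 labelled IK-KO (omissions up to 0.076). The scalings put the median of all genes at 0.017 as deposited, -0.004 for TPM and 0.001 for median of ratios.

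With a replicate block, 4 subunits and 1805 genes were called, against 4 and 2515, and it changed no call of a subunit (CBX2 limma adjusted p = 0.0424). The same-numbered libraries share only a number. Low fragment numbers limit PCGF2 in wild type and CBX7 throughout.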

Other observations

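FBRSL1, a variant PRC1 gene of the PCGF3 and PCGF5 complexes, was 38.0, 40.7 and 96.1 FPKM in wild type and 43.96, 47.4 and 32.0 FPKM in the IK-KO-labelled libraries. The deposited bounds of wild type replicate 3 ran from 0 to 192.9 FPKM, far wider than the 33.2 to 42.8 FPKM of wild type replicate 1. No comparison of FBRSL1 is drawn from these values.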
